A study of Mus musculus and Rattus norvegicus with 26 samples.

Results

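Kcnma1 encodes the pore-forming subunit of the BK channel, the large-conductance potassium channel opened by calcium and by voltage. Its intronic contigs were collected from 6 lists of intron sequence found in RNA from dendrites, somas and other single cells, by taking every contig whose gene symbol is Kcnma1. They number 24 of the 112345 contigs of the 6 lists, 19 in the mouse lists and 5 in the rat lists, under the RefSeq transcripts NM_010610 in mouse and NM_031828 in rat. A contig is a run of intronic reads, and each carries the number of its intron, its position and the read count of the whole intron.

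The 26 libraries came from embryonic tissue and were amplified by 3 rounds of aRNA, a linear amplification started by a poly(T) primer. Hippocampal neurons of C57BL/6 mice at embryonic day 18 were cultured and gave 3 libraries of dissected dendrites and 3 of single somas, and those of Sprague-Dawley rats at embryonic day 18 gave 2 of dendrites and 3 of somas, though the study's supplement gives another age for the rats. The neurons were grown in culture before they were dissected, so they were older than embryonic day 18 at harvest. Each dendrite library pooled many dissected dendrites, while each soma library held a single soma. Brown adipose tissue (BAT) cells between the shoulder blades of CD-1 mice at embryonic day 17.5 gave 6 libraries, the cells being picked by their shape. Cardiomyocytes of transgenic C57BL/6 mice at embryonic day 14.5 gave 9, and these mice carry the Fucci probe mAG-hGem (1/110), a green cell cycle reporter under the ubiquitous CMV promoter, by whose fluorescence the cells were sorted. The carriers were bred from hemizygous males and wild-type females. For BAT and cardiomyocytes the study's text counts fewer cells than the labels, so which of these libraries entered the lists is not known. The libraries of a group are pooled in its list, so each group has 1 value and no error between libraries. Somas, BAT cells and cardiomyocytes were taken with the nucleus, and nuclear and cytoplasmic RNA cannot be told apart in their lists. Nor can more cells with a transcript and more of it per cell be told apart in a pooled list. The lists hold 3086576 reads for mouse dendrites, 1855447 for mouse somas, 17858440 for BAT, 12201042 for cardiomyocytes, 1007530 for rat dendrites and 2094541 for rat somas.

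BK channels carry an outward current that shortens action potentials and limits transmitter release in neurons, and they relax smooth muscle. The channel is a tetramer of Kcnma1 subunits, tuned by accessory beta and gamma subunits, by nearby calcium channels and by many alternative exons of the Kcnma1 transcript. A form of the transcript that keeps part of intron 16 had been described in the cytoplasm of hippocampal neurons before these data were collected. This makes the place of the contigs within the gene of interest. Whether that intron is the one numbered 16 in the lists was not checked.

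Kcnma1 was listed in all 6 lists, as were 6.25% of the 13686 gene symbols found in any of them. Mouse dendrites had 1597 Kcnma1 reads (exact Poisson 95% interval 1520 to 1677), mouse somas 169 (144 to 196), BAT 1114 (1050 to 1181) and cardiomyocytes 15 (8.40 to 24.7). In rat, dendrites had 5 reads (1.62 to 11.7) and somas 859 (803 to 918). All intervals cover counting error only, since amplified reads are not independent molecules. Reads were thus many in mouse dendrites, BAT and rat somas and few in cardiomyocytes and rat dendrites.

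As a share of all listed reads, with contigs of any length, Kcnma1 stood highest in mouse dendrites, at 517 reads per 1000000 listed reads (RPM; 492 to 543). Mouse somas had 91.1 RPM (77.9 to 106), BAT 62.4 (58.8 to 66.2) and cardiomyocytes 1.23 (0.688 to 2.03). Neighbours in this order of the 4 mouse lists were separated by more than counting error, but the spread between libraries is unknown. Rat somas had 410 RPM (383 to 438) and rat dendrites 4.96 (1.61 to 11.6). With introns that have a contig of at most 400 nt, rat somas came first (1384 RPM, against 897 in mouse dendrites). With introns whose contigs are all of at most 400 nt, mouse dendrites (15.5) fell below mouse somas (26.7), BAT (34.8) and both rat lists (22.4 and 103). With contigs of any length, the order of dendrites and somas was opposite in the 2 species.

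The share was 5.68 times higher in mouse dendrites than in mouse somas (exact conditional 95% interval 4.84 to 6.70). Of the 4739 genes in both lists, 33.2% were at least 4 times higher in dendrites, and 29.3% had a larger ratio than Kcnma1. A ratio of this size was thus common between these lists. Somas exceeded BAT 1.46 times (1.23 to 1.72), below the 4 times that 33.7% of 5076 genes reached in that direction. BAT exceeded cardiomyocytes 50.7 times (30.6 to 91.0), where 34.3% of 5442 genes were at least 4 times higher in BAT and 11.9% had a larger ratio. Rat somas exceeded rat dendrites 82.6 times (35.3 to 255), where 24.6% of 2166 genes were at least 4 times higher in somas and 4.99% had a larger ratio. The ratios depended on contig length. The study limited contigs to 400 nt in whole cells only, so the limits set on dendrites below are not its rule. Keeping the whole count of each intron with at least 1 contig of at most 400 nt, in all lists, gave 79.6 for dendrites to somas and 3.16 for BAT to cardiomyocytes. Keeping only introns whose contigs are all of at most 400 nt, a rule added after seeing the data, turned the ratio of dendrites to somas to 0.581 and that of somas to BAT to 0.768, on 13 Kcnma1 reads in dendrites and 10 in somas. It took the ratio of BAT to cardiomyocytes to 4.16 and that of rat somas to rat dendrites to 4.61. The higher share in mouse dendrites thus rests mainly on introns 15 and 16, which each have a contig over 400 nt. These ratios compare pooled lists and have no replicate check.

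The reads lay in 3634 nt of contig in mouse dendrites, or 439 reads per kb of contig. The other lists covered 1211 nt in mouse somas (140 reads per kb), 2771 nt in BAT (402), 755 nt in cardiomyocytes (19.9), 237 nt in rat dendrites (21.1) and 1717 nt in rat somas (500). By reads per kb of contig, Kcnma1 exceeded 84.9% of the 8607 genes of the mouse dendrite list, 62.2% of 5895 in mouse somas, 68.0% of 10220 in BAT and 13.7% of 6205 in cardiomyocytes. In rat it exceeded 24.3% of the 4485 genes in dendrites and 73.7% of 3393 in somas. By reads alone, with no regard to length, it ranked 406, 1639, 2389 and 4546 in the mouse lists in the same order, and 3473 and 533 in rat dendrites and somas. The gene stood in the upper part of every list except those of cardiomyocytes and rat dendrites. Either rule on 400 nt left 52 Kcnma1 reads in BAT and 10 in mouse somas, and a minimum of 32 reads an intron left 0 in cardiomyocytes and in rat dendrites.

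**Figure D1:**
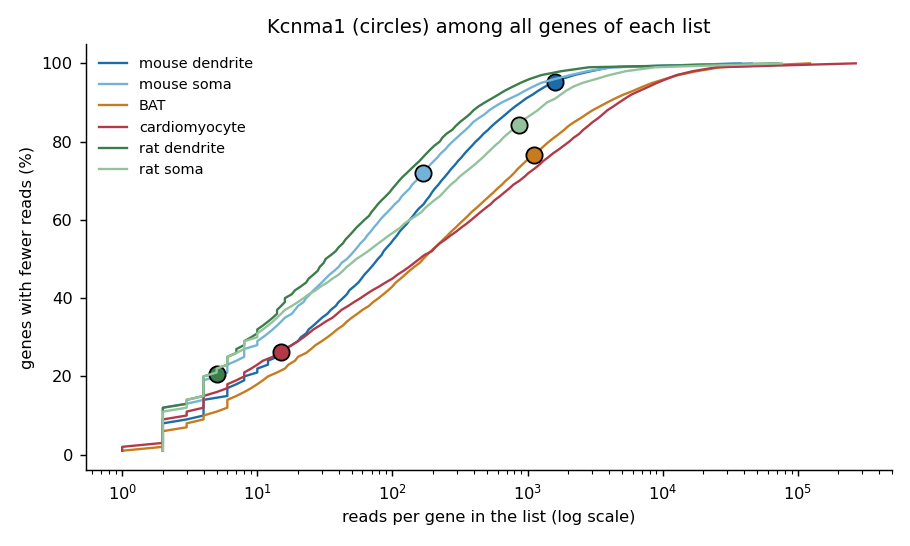
Reads per gene in each list (log axis, lines, plotted at each percentile) against the percentage of genes of that list with fewer reads, with Kcnma1 as a circle. Kcnma1 lies above 95.3% of the genes of mouse dendrites, 76.6% in BAT and 26.3% in cardiomyocytes.

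Mouse dendrite reads came mainly from neighbouring introns. Intron 16 had 1163 reads (1097 to 1232), 72.8% of those of the gene, in 3 contigs, and intron 15 had 398 (360 to 439), also in 3 contigs. Introns 23 and 27 had 1 contig each, with 23 reads (14.6 to 34.5) and 13 reads (6.92 to 22.2). Intron 16 ranked 484 among the 19477 introns of the list, with more reads than 97.5% of them. The 3 other mouse lists had no contig in intron 16.

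In mouse somas intron 6 led with 159 reads (135 to 186), 94.1% of the gene's total. Intron 21 had 8 reads (3.45 to 15.8) and intron 15 had 2 (0.242 to 7.22). In BAT the leading intron was a further one, intron 20, with 892 reads (834 to 953) in a contig of 1444 nt, the longest of the gene. BAT also had intron 23 with 170 reads (145 to 198), intron 6 with 40 (28.6 to 54.5) in 2 contigs, intron 25 with 10 (4.80 to 18.4) and intron 15 with 2. Cardiomyocytes had 10 reads in intron 15 (4.80 to 18.4) and 5 in intron 6 (1.62 to 11.7), which cannot be ordered at such counts. The study kept only contigs of at most 400 nt in whole cells, to limit unspliced nuclear RNA. Under that limit the contigs of soma intron 6 (741 nt), BAT intron 20, BAT intron 23 (449 nt) and cardiomyocyte intron 6 (537 nt) drop out. In rat somas the intron 3 contigs of 405 and 862 nt do so too.

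**Figure D2:**
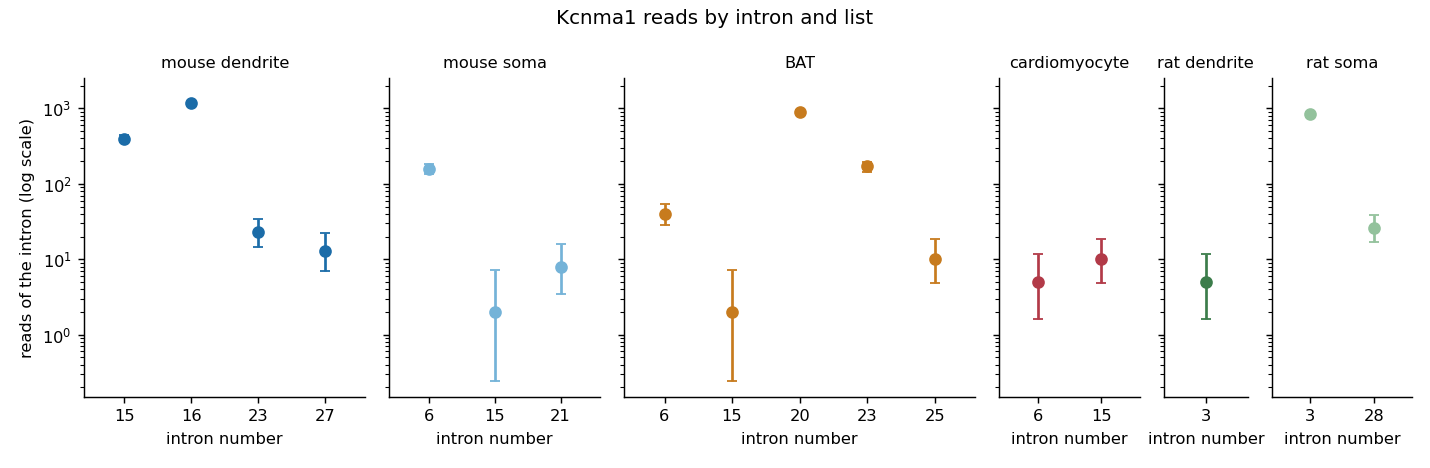
Reads of each listed Kcnma1 intron (log axis) in the 6 lists, with exact Poisson 95% intervals as bars. Intron 16 leads in mouse dendrites with 1163 reads, intron 6 in mouse somas with 159, intron 20 in BAT with 892 and intron 3 in rat somas with 833. Rat and mouse introns are numbered along different transcripts.

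Across the 4 mouse lists 8 introns had a contig, of which 5 appeared in 1 list, intron 23 in 2 (dendrites and BAT) and intron 6 in 3 (all but dendrites). Intron 15 was listed in all 4, as were 3.7% of the 46599 introns found in any mouse list. The share of those 46599 introns that appeared in 1 list was not counted. Whether 5 of 8 is usual is therefore not known. The leading intron of Kcnma1 differed between mouse dendrites, somas and BAT, and how often it does so over all genes was not counted. The median gene had 2 listed introns in mouse dendrites and in BAT and 1 in the other mouse lists, and at least as many as for Kcnma1 were found for 16.8% of the genes in dendrites, 18.6% in somas, 18.5% in BAT and 48.2% in cardiomyocytes.

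The mouse gene lies on the minus strand of chromosome 14, at chr14:24117983-24622526 on NCBIM37 (mm9), in the GENCODE annotation with 6 transcripts. Intron numbers of the lists exceed by 1 those of the annotated transcript ENSMUST00000065788, which has 28 exons and 27 introns, for all 19 mouse contigs, and the listed numbers are used here. The listed transcript thus seems to begin with an exon upstream of this annotation. Its intron 1 would then be missing from the intron lengths, intron counts and gene span given here. None of the contigs overlapped an annotated exon of any gene, and no other annotated gene overlapped the locus. Their distance to the nearest annotated exon had a median of 2272 nt and ranged from 299 nt, in the soma contig of intron 6, to 5392 nt. The lists hold intronic sequence by construction, so the lack of overlap with exons was largely set in advance. Splice sites outside the annotation were not searched.

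The 8 introns had a median length of 12084.5 nt, against 5974 nt for the 19 annotated introns without a contig. The first annotated introns, which include the longest of 152953 nt, were empty, and so were all 5 introns longer than intron 23 (26742 nt). Together they covered 14% of intron 27, 13.6% of intron 6, 11.7% of intron 16, 11.1% of intron 20 and 10.2% of intron 15, with overlapping sequence counted once.

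**Figure D3:**
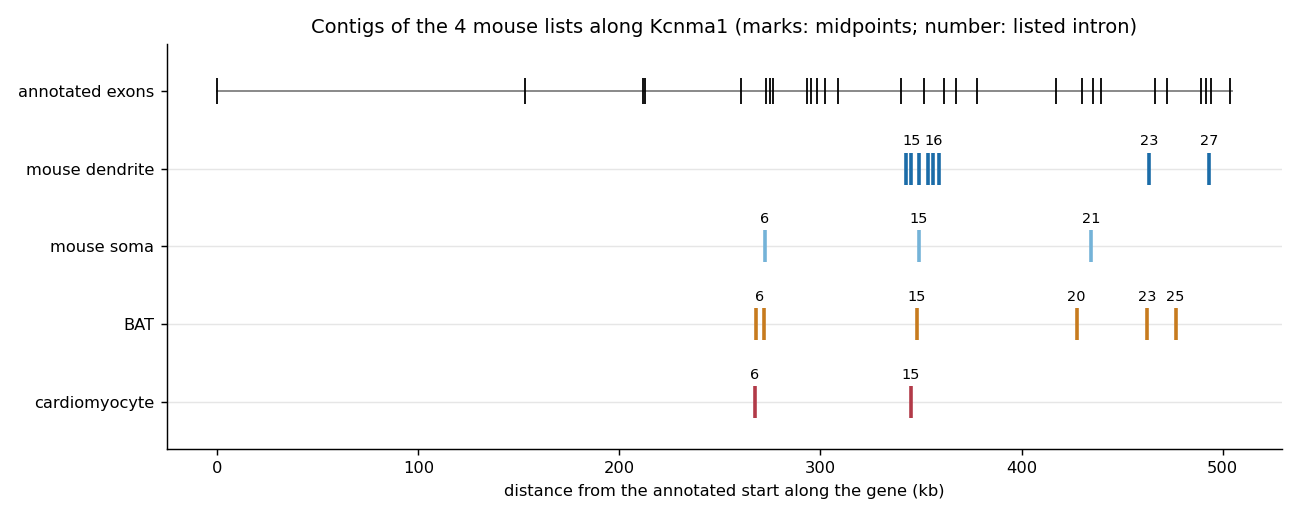
Position along the gene in kb from the annotated start, with exon midpoints as black marks and contig midpoints of the 4 mouse lists as coloured marks, labelled with the listed intron. The dendrite contigs of introns 15 and 16 lie within 16640 nt, and no contig lies in the long introns of the first part of the gene.

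The intron 16 contigs of mouse dendrites lay at chr14:24268847-24269438 (592 nt), chr14:24266381-24266678 (298 nt) and chr14:24263411-24263630 (220 nt), in this order from the upstream exon, on the minus strand of NCBIM37. The count of 1163 reads belongs to the intron and cannot be divided among them. The exon between introns 15 and 16 has 69 nt. Intron 16 (chr14:24261302-24270820, 9519 nt) also holds an alternative exon of 12 nt, at chr14:24268422-24268433, which lies 413 nt from the first contig and is not covered. Their genomic sequence is shown because most Kcnma1 reads of dendrites come from it, read 5′ to 3′ on the strand of the gene, for the first contig its 300 nt at chr14:24269139-24269438 and for the others the whole contig, with runs of at least 10 A or T in capitals.

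Intron 16, contig 1: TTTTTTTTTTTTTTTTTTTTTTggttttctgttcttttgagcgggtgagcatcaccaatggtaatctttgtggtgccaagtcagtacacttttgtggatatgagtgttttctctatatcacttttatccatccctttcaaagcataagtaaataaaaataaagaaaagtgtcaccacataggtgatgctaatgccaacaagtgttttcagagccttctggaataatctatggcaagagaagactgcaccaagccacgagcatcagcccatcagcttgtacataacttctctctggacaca
Intron 16, contig 2: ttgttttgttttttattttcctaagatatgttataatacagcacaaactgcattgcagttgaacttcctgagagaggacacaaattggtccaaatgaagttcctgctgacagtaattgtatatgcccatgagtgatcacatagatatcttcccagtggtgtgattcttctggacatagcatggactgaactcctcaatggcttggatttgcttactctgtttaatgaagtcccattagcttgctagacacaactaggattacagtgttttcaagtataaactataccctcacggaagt
Intron 16, contig 3: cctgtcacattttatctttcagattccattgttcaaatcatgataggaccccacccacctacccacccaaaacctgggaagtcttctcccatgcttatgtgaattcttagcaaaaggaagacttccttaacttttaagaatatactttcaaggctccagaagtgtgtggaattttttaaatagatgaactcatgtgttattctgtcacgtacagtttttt

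The alternative exon is shown with 30 nt on each side, at chr14:24268392-24268463 on the minus strand of NCBIM37, with the exon in capitals, since it is the annotated splice choice nearest to the contigs.

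Alternative exon in intron 16: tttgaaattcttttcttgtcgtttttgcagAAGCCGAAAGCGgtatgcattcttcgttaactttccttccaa

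The first contig begins with a run of 22 T, and the 2 others hold no run of 10. Reading on from the upstream exon in the annotated frame, which has no stop codon within its 3333 coding nucleotides, a stop codon starts at base 2 of intron 16. The same base starts a stop codon in 5 of the 8 listed introns and in 10 of all 27, and every one of the 27 introns has one within 300 nt, the farthest among listed introns at base 247 of intron 25. No mouse contig lay nearer than 1382 nt to its upstream exon, so none of these stop codons lies in a contig. Whether the transcripts hold them is not known.

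Intron 15 (chr14:24270890-24282322, 11433 nt) is the one place where Kcnma1 contigs of different mouse lists overlapped. The dendrite contig at chr14:24273425-24273886 contains the whole soma contig of 226 nt, which has 2 reads, and the dendrite contig at chr14:24277582-24277899 shares 216 nt with the cardiomyocyte contig at chr14:24277580-24277797. The BAT contig, at chr14:24274518-24274708, lay 631 nt from the nearest dendrite contig. The shared stretches are chr14:24273433-24273658 and chr14:24277582-24277797 on the minus strand of NCBIM37, and neither holds a run of 10 A or T that would be in capitals.

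Intron 15, mouse dendrites and somas: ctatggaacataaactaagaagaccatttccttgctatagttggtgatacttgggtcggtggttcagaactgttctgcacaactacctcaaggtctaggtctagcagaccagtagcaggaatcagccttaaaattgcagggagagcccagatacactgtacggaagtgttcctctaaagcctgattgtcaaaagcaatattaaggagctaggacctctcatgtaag
Intron 15, mouse dendrites and cardiomyocytes: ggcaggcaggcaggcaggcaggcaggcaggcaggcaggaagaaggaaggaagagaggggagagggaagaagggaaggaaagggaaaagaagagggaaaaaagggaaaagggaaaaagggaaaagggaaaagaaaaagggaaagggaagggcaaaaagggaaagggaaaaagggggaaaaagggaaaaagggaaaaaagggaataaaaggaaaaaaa

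The stretches differ in kind. The one shared with somas is 54.0% purine, while the one shared with cardiomyocytes is 94.9% purine and begins with a short tandem repeat. In the cardiomyocyte contig 36.6% of the 25-mers, stretches of 25 bases, occur elsewhere in the mouse genome on either strand, and in the soma contig 0%.

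Over the 6 pairs of mouse lists, a Kcnma1 intron was listed in both lists 10 times, with overlapping contigs in 2. Over all introns listed in both lists of a pair, contigs overlapped in 58% for dendrites and somas, 44% for dendrites and BAT, 44.9% for dendrites and cardiomyocytes, 52.4% for somas and BAT, 59.8% for somas and cardiomyocytes, and 65.3% for BAT and cardiomyocytes. In 3 further cases the Kcnma1 contigs lay close to each other without overlap, 80 nt apart in intron 6 between somas and BAT, 146 nt in intron 6 between BAT and cardiomyocytes, and 456 nt in intron 23 between dendrites and BAT. A limit of 500 nt, the distance within which the authors joined reads, would count 5 of 10 as shared, against 65.3% of the 36377 cases over all introns.

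**Figure D4:**
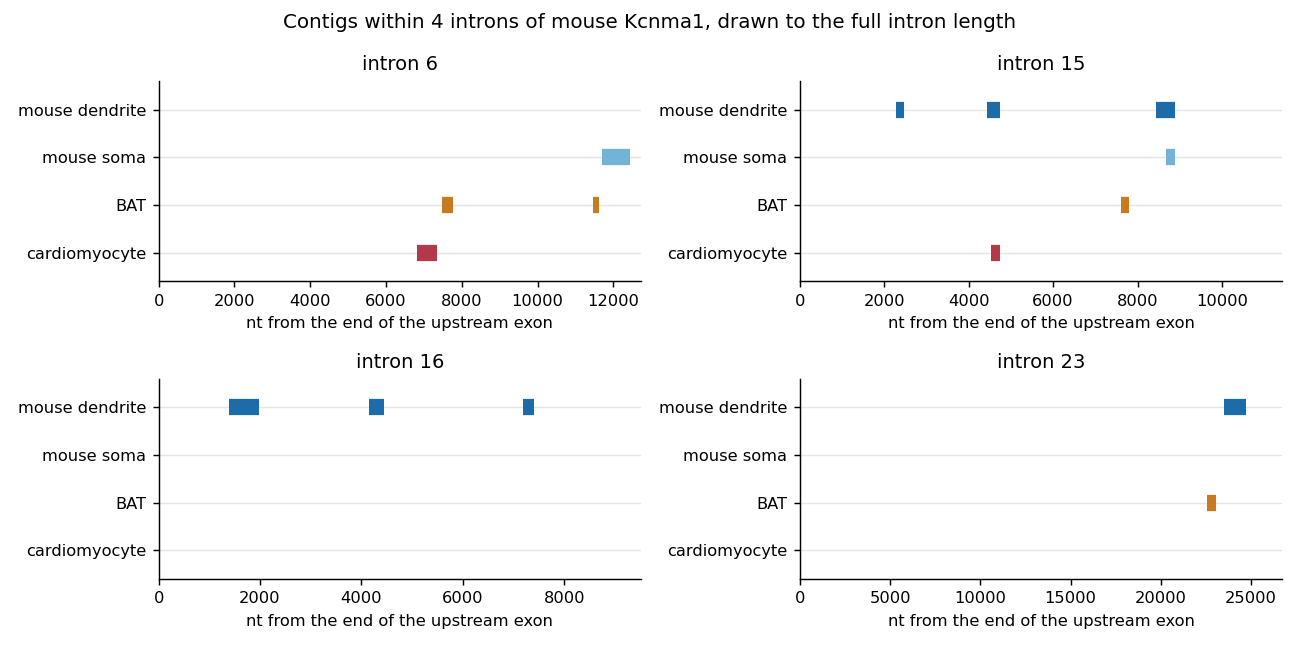
Contigs (bars, to scale) of the 4 mouse lists within introns 6, 15, 16 and 23, in nt from the end of the upstream exon, each panel spanning the whole intron. In intron 15 a dendrite contig overlaps that of somas and another that of cardiomyocytes, and intron 16 has contigs in dendrites alone among these lists.

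In intron 6 (chr14:24349517-24362252, 12736 nt) the contigs differed in their share of repeated sequence. Of the 25-mers of the cardiomyocyte contig at chr14:24354909-24355445, 100% occur elsewhere in the genome, at a median of 459 places. The shares were 81.0% in the BAT contig at chr14:24354471-24354762 and 0% in that at chr14:24350637-24350801. In the soma contig at chr14:24349816-24350556 it was 16%. Of all 19 mouse contigs, 5 had more than 10% of such 25-mers, and the median was 0.282%. The share over all contigs of the lists was not analysed here. The study counted only read pairs that map uniquely, so these shares do not show that the counted reads map elsewhere. The dendrite contigs of intron 16 had 4.58%, 0% and 0%, and the BAT contig of intron 20 had 0.282%. A dendrite contig of intron 15, at chr14:24277582-24277899, had 26.5%. The contigs of intron 16 and of BAT intron 20 thus hold few repeated 25-mers, unlike this one.

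The contigs of the most read introns of BAT and of mouse somas are shown at 1 end each, the contig in capitals and its flank in lower case. For BAT, chr14:24194311-24194610 holds the last 200 nt of the intron 20 contig (chr14:24194411-24195854) and the next 100 nt. For somas, chr14:24350357-24350656 holds 100 nt before the intron 6 contig and its first 200 nt. Both are on the minus strand of NCBIM37.

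Intron 20, BAT: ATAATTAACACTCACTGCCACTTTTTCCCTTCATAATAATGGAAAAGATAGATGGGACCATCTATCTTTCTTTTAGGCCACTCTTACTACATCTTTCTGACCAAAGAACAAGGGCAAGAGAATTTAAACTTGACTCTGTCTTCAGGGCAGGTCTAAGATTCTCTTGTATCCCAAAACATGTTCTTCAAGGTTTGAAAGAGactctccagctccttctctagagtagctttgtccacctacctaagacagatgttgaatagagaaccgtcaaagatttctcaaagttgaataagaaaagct
Intron 6, mouse somas: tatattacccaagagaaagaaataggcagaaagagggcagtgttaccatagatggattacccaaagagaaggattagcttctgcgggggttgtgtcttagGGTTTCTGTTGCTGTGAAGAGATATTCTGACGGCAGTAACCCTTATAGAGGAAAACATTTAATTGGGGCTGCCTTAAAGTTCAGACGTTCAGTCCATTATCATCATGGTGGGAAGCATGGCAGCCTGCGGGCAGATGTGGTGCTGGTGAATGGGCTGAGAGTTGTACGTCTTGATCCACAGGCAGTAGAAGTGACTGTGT

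Since the amplification starts from a poly(T) primer, runs of at least 10 A on the strand of the gene were searched within 300 nt downstream of each contig. They were found for 4 of the 19 mouse contigs, 2 of 8 in dendrites, 1 of 3 in somas, 1 of 6 in BAT and 0 of 2 in cardiomyocytes. Over all contigs of these lists the shares were 8.11%, 18.6%, 7.36% and 9.53%. Runs of at least 10 T within 300 nt upstream were found for 0 of the 19, against 12.6%, 11.4%, 8.95% and 7.61% of all contigs in the same order. Inside the contig a run of at least 10 A or T was found in 2 of the 19, the 22 T that begin the first contig of intron 16 and 13 A in the BAT contig of intron 23, against 22.7%, 19.0%, 17.1% and 22.1% of all contigs. With so few contigs the counts cannot be told from these shares.

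The 4 tracts began 4 to 13 nt after the contig. They are shown as the last 30 nt of the contig and the next 50 nt on the minus strand of NCBIM37, with the tract in capitals. The windows are chr14:24279809-24279888 for intron 15 and chr14:24263361-24263440 for intron 16 of dendrites, chr14:24187608-24187687 for intron 21 of somas and chr14:24145771-24145850 for intron 25 of BAT.

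Intron 15, mouse dendrites: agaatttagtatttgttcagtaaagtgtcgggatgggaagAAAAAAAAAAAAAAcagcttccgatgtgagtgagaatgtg
Intron 16, mouse dendrites: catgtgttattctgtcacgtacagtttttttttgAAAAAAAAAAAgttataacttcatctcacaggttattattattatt
Intron 21, mouse somas: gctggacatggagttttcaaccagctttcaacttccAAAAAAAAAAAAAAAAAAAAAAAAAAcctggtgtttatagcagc
Intron 25, BAT: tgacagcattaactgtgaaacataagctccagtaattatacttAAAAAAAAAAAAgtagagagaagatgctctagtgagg

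The tracts had 14, 11, 26 and 12 A in this order. The longest followed the soma contig of intron 21, which has 8 reads. The contigs of BAT intron 20 and of soma intron 6 had none.

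In rat, Kcnma1 contigs lay on the plus strand of chromosome 15 of rn4. Somas had 833 reads in intron 3 (777 to 892), in contigs at chr15:349741-350145, chr15:371475-371666 and chr15:374730-375591, which span 25851 nt. They also had 26 reads in intron 28 (17.0 to 38.1), at chr15:931280-931537, 555688 nt farther along the gene. The contig of rat dendrites, at chr15:375190-375426, had 5 reads and lay inside the soma contig of 862 nt. Contigs overlapped in 66.5% of the 1850 introns listed in both rat lists. Neither rat list had a contig in introns 15 or 16, but the numbers were not matched between the species, and the rat genome and intron lengths were not analysed here.

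BK-related genes were followed in a list of 31, of which 24 were in a mouse list and 14 in a rat list. Of the 24, 20 were listed in mouse dendrites, 14 in somas, 23 in BAT and 12 in cardiomyocytes. Over all 12467 genes of the mouse lists, the shares were 69%, 47.3%, 82% and 49.8%. Of the 14 in rat, 13 were listed in dendrites and 8 in somas, beside 78.5% and 59.4% of 5712 genes. In mouse the counts were highest in BAT and dendrites, the lists with the most genes, and the shares of all genes were highest there too. By reads per kb of contig, 4 of the 20 exceeded Kcnma1 in mouse dendrites, 6 of 14 in mouse somas, 6 of 23 in BAT and 12 of 12 in cardiomyocytes, and 8 of 13 and 2 of 8 in rat dendrites and somas. Of all genes, Kcnma1 exceeded 84.9%, 62.2%, 68.0%, 13.7%, 24.3% and 73.7% in this order, so the related genes lay about where all genes do.

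Among pore relatives, Kcnt2, a sodium-activated potassium channel, was listed in all 6 lists like Kcnma1. It had 1636 RPM in 11 introns in mouse dendrites, 2121 in 10 introns in somas, 130 in 12 introns in BAT and 1.23 in 1 intron in cardiomyocytes, and 213 and 302 RPM in rat dendrites and somas. Its relative Kcnt1 had 16 reads in mouse dendrites. Kcnu1, known from sperm as a pH-sensitive channel, had 61.6 RPM in mouse dendrites, 1.08 in somas and 11 in BAT. Among the mouse lists Kcnt2, like Kcnma1, had its lowest share in cardiomyocytes.

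Of the 8 accessory subunits 4 were in no list, but the share of all annotated genes in no list was not counted. Of the 4 beta subunits, which shift calcium sensitivity and inactivation, Kcnmb3 had 2.59 RPM in mouse dendrites, 0.504 in BAT, 39.0 in cardiomyocytes and 1.99 in rat dendrites, and Kcnmb2 had 16 reads in rat dendrites. Kcnmb1 and Kcnmb4, the smooth muscle and the main neuronal form, were in no list. Of the 4 gamma subunits, which ease opening by voltage, Lrrc38 had 192 reads in mouse dendrites and 1 in BAT and Lrrc52 had 1189 in BAT, while Lrrc26 and Lrrc55 were in no list. By reads per kb of contig, Lrrc38 in mouse dendrites (611), Lrrc52 in BAT (745), Kcnmb3 in cardiomyocytes (769) and Kcnmb2 in rat dendrites (35.8) exceeded Kcnma1 in the same lists.

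Calcium sources, the channels that feed calcium to BK channels, had 9 of 10 members in a mouse list. Of these 9, all were listed in mouse dendrites and in BAT, 7 in somas and 5 in cardiomyocytes, beside 69%, 82%, 47.3% and 49.8% of all genes. In mouse dendrites Cacna1d, an L-type channel, had 2713 reads and Itpr1, the IP3 receptor, had 1618. In mouse somas Cacna1b, the N-type channel of nerve terminals, had 8056 reads, and Itpr1 had 1591. The ryanodine receptor Ryr2, the calcium release channel of the heart, had 11985 RPM in 47 introns in cardiomyocytes, 345 in BAT, 280 in mouse dendrites and 4.31 in somas. The cardiac L-type channel Cacna1c had 2442 RPM in cardiomyocytes, 235 in mouse dendrites, 71.1 in somas and 4.65 in BAT. Among the mouse lists both thus had their highest share in cardiomyocytes, where that of Kcnma1 was lowest.

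The other genes of this group were not in every list. In the mouse lists that held them, Cacna1a had 45.7 RPM in dendrites, 133 in somas and 30.5 in BAT, and Cacna1g had 13.9 in dendrites and 5.15 in BAT. Ryr1 had 20.1, 2.16 and 59.2 RPM in dendrites, somas and BAT, and Ryr3 had 52.8, 15.2 and 194 in dendrites, BAT and cardiomyocytes. In rat somas Cacna1c had 3240 reads and Cacna1b had 2543, and in rat dendrites Itpr1 led with 174. Cacna1h had 2 reads in rat dendrites and was in no mouse list.

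Among other calcium-activated potassium channels, Kcnn2, a small-conductance channel, had 97.8 RPM in mouse dendrites, 1545 in somas, 70.4 in BAT and 1758 in cardiomyocytes. Kcnn3 had 6.16, 1.08 and 23.5 RPM in dendrites, somas and BAT, Kcnn4 had 11.1 in BAT, and Kcnn1 was in no list. Kcnn2 thus had similar shares of listed reads in somas and cardiomyocytes, but 611 and 8162 reads per kb of contig. Neither rat list held a member of this group.

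Of the 6 kinases and partners, 4 were listed in mouse dendrites, 3 in somas, 6 in BAT and 4 in cardiomyocytes, near the shares of all genes (69%, 47.3%, 82% and 49.8%). Dtna, a dystrobrevin that binds the dystrophin complex, had 580 RPM in mouse dendrites, 4.31 in somas, 32.5 in BAT and 38.5 in cardiomyocytes. Crbn, the substrate receptor of a ubiquitin ligase that binds the channel, had 55.6 RPM in BAT and 246 in cardiomyocytes. Fmr1, an RNA-binding protein that modulates BK channels, had 31.4, 86.2, 78.7 and 16.2 RPM in the 4 lists. Among kinases, Camk4 had 56.0 RPM in dendrites and 22.5 in BAT, Prkaca had 0.648, 26.4, 10.4 and 9.02, and Prkg1 had 1.46 in BAT. In rat no gene of the group had more than 16 reads.

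**Figure D5:**
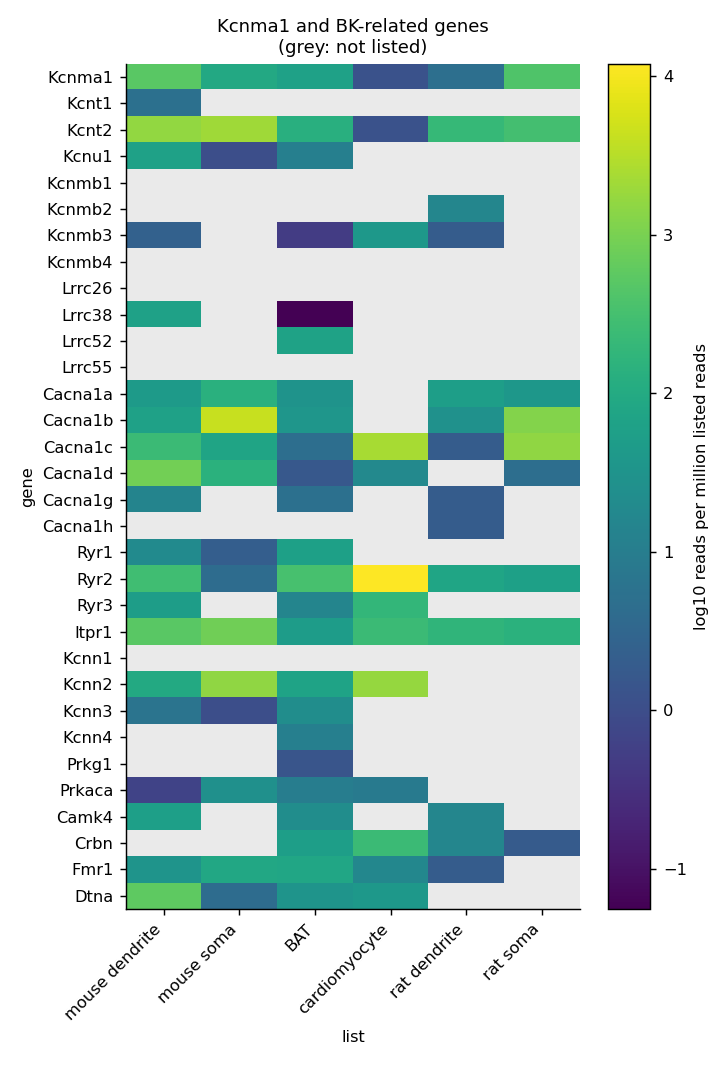
RPM (log10 colour scale) of Kcnma1 and 31 BK-related genes in the 6 lists, with genes that are not listed in grey. Kcnma1, Kcnt2, Cacna1c, Itpr1 and Ryr2 have values in all 6 lists, while the beta and gamma subunits are mostly grey.

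Genes with the most similar pattern were sought among 855 other genes present in all 6 lists, by the Euclidean distance of log2(RPM + 1) over the 6 lists. The nearest was Ryk, a receptor for Wnt ligands, at a distance of 3.27, against a median of 9.89 over all genes compared. It was followed by Bcap29 (3.69), Slit2, an axon guidance ligand (3.75), Ears2, a mitochondrial tRNA synthetase (3.78), and Lima1, an actin-binding protein (3.80). Ryk had 164 RPM in mouse dendrites, 83.0 in somas, 29.8 in BAT and 0.164 in cardiomyocytes, and 3.97 and 75.0 in rat dendrites and somas. Slit2 (63.8 and 112 RPM) and Lima1 (44.7 and 109) were instead lower in mouse dendrites than in mouse somas, so a short distance does not mean the same order. None of the 5 remained nearest when only the 4 mouse lists were used, which also raised the genes compared from 855 to 3071.

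Marker genes were looked up to check the labels, with the reservation that a list shows intronic reads and not messenger RNA levels. Of 6 neuron markers, 5 were listed in mouse dendrites (349 RPM, led by Camk2a) and 6 in mouse somas (5948, led by Syt1), and 1 and 3 in rat dendrites (52.6) and somas (2740), both led by Syt1. Of 6 brown adipocyte markers, 5 were listed in BAT (3601), led by Pparg and with Ucp1 at 6596 reads but not Ppargc1a. Of 6 cardiomyocyte markers, 5 were listed in cardiomyocytes (24306), led by Ryr2 and without Nppa. Rbfox3 was not listed in mouse dendrites, rat dendrites had only Syt1 of the 6, and rat somas lacked Map2, Camk2a and Rbfox3. Beside these counts, the shares of all genes were 69% in mouse dendrites, 47.3% in mouse somas, 82% in BAT, 49.8% in cardiomyocytes, 78.5% in rat dendrites and 59.4% in rat somas. These shares are over genes found in a list of the species, while the marker counts include genes found in none. Ppargc1a and Nppa were in no mouse list, and Map2, Camk2a and Rbfox3 were in no rat list. The marker counts were therefore not ranked against these shares. Neuron markers were also listed in BAT, 5 of 6 (1194 RPM, led by Map2), and in cardiomyocytes, where Camk2a alone was listed (369), both above their share in mouse dendrites.

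Some markers of other cell types had, like Kcnma1, their highest mouse share in dendrites. Of 4 smooth muscle markers, each mouse list had 2, and none was listed in rat. Together they had 388 RPM in mouse dendrites, nearly all from Myh11 with 1192 reads. The other mouse lists had 6.47 in somas, 1.06 in BAT and 8.28 in cardiomyocytes. Acta2 ran the other way, with 6 reads in mouse dendrites (1.94 RPM) and 99 in cardiomyocytes (8.11 RPM). Smtn was listed in mouse somas alone, and Cnn1 was in no list. Of 3 microglia markers, of which Cx3cr1 was in no list, mouse dendrites had 2 and the other lists at most 1. They had 275 RPM in mouse dendrites, led by Itgam, 37.7 in somas and 28.4 in BAT, and 696 in rat dendrites, where Kcnma1 was low, with none listed in cardiomyocytes and rat somas. Their part in the Kcnma1 values was not tested.

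Of the remaining marker groups, fibroblast markers also had their highest mouse share in dendrites, and the others showed other orders. Astrocyte markers had 50.9 RPM in mouse dendrites, 139 in somas, 45.2 in BAT, 68.5 in rat dendrites and 120 in rat somas, and oligodendrocyte lineage markers 23.3, 56.1, 4.31, 138 and 28.6. Fibroblast markers had 48.9 in mouse dendrites, 30 in BAT and 319 in rat dendrites. Endothelial markers had 7.78 in mouse dendrites, 437 in somas, led by Kdr, 25.6 in BAT and 0.902 in cardiomyocytes. Brown adipocyte markers had 129 in mouse dendrites, 1.08 in somas, 287 in cardiomyocytes, 94.3 in rat dendrites and 7.16 in rat somas, and cardiomyocyte markers had 514 in mouse dendrites, 10.2 in somas, 1279 in BAT, 77.4 in rat dendrites and 59.7 in rat somas.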

How the data were processed

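The lists hold raw read counts per intron as deposited by the authors, repeated on each contig of the intron. Their unstranded 50-bp reads were aligned to mm9 or rn4 with RUM, and intronic reads within 500 bp were joined.

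Each count was taken once per transcript and intron, and starts were shifted to count from 1. Listed counts start at 1 read. Exact Poisson and conditional intervals (95%) cover counting error. With 1 pooled list per group, no test was made. Likeness used a pseudocount of 1 RPM. Mtap2 was read as Map2. The named genes are Kcnma1, the BK-related and marker lists and the 5 nearest genes. From these lists 2 genes are not used here. The members and lists were chosen with earlier results of these data known. Genome and GENCODE annotation are of NCBIM37. Python 3.11.15, pandas 2.3.3, numpy 2.4.6, scipy 1.17.1 and matplotlib 3.10.9 were used. Alternatives were other counting rules, limits of 400 nt and 32 reads, other totals, tract settings and likeness settings.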

Additional observations from a re-analysis of the deposited data

How the results depend on the processing

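Summing the repeated count over contigs gave 4719 Kcnma1 reads in mouse dendrites and 2525 in rat somas. Introns with at least 1 contig of at most 400 nt left 10 reads in mouse somas and 52 in BAT, and 3 introns in BAT and 1 in cardiomyocytes. With numerator and total limited in this way, the share in reads per 1000000 (RPM) was 897 in mouse dendrites, 11.3 in mouse somas, 6.76 in BAT, 2.14 in cardiomyocytes, 12.8 in rat dendrites and 1384 in rat somas, and the ratio of mouse dendrites to somas became 79.6 and that of BAT to cardiomyocytes 3.16. Introns whose contigs are all of at most 400 nt, a rule chosen after seeing the data, left 13 reads in mouse dendrites, 10 in mouse somas, 52 in BAT and 26 in rat somas, with shares of 15.5, 26.7, 34.8, 8.36, 22.4 and 103 RPM in the same order of the 6 lists. Ratios became 0.581 for mouse dendrites to somas and 0.768 for somas to BAT, both reversed, 4.16 for BAT to cardiomyocytes and 4.61 for rat somas to dendrites. A minimum of 32 reads left 0 reads and 0 introns in cardiomyocytes and rat dendrites, 2 introns in mouse dendrites, 1 in mouse somas, 3 in BAT and 1 in rat somas, and 9 BK-related genes in mouse somas and 4 in rat dendrites. Leaving the 10 most read introns out of the total gave shares of 544 in mouse dendrites and 471 in rat somas. Per read of the libraries, mouse dendrites exceeded somas 7.90 times. Contigs within 500 nt, a setting chosen after seeing the data, made 5 of 10 intron pairs shared, beside 65.3% of all 36377 pairs. Of the 5 genes most like Kcnma1, 3 remained with a pseudocount of 10 and 0 with the 4 mouse lists, where 3071 genes were compared instead of 855. The other alternatives stayed within counting error or within 1.5 times the count, and no other ratio changed direction. The causes were not tested.

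Because the lists pool the libraries, leaving out each replicate could not be run. No paired analysis was possible because each group has 1 pooled value. Values of 2 to 15 reads in cardiomyocytes, rat dendrites and intron 15 of somas and BAT have wide intervals.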
